A study of Mus musculus with 4 samples.

Results

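UDP-glucuronosyltransferases of families 1 to 3, sulfotransferases, carboxylesterases and flavin-containing monooxygenases were followed as 1 group of liver enzymes, chosen by gene symbol in the authors' deposited table. The symbols gave 53 genes on 71 probes, of 27414 genes on the array in all, a probe without a gene name counting as a gene: 14 Ugt, 16 Sult, 16 Ces and 7 Fmo genes. Of these, 51 genes had signal above background and were tested. The probes of Sult2a3 and Sult2a5 were not well above background in either channel of any array and gave no tested value. Sult2a8 and Sult3a2 were deposited under older names that the choice did not take, and their log2 ratios were -0.14 ± 0.32 and 0.01 ± 0.11 (SD, n = 4).

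RNA came from the liver of male C57Bl/6 mice aged 3 months, kept on a reversed light-dark cycle. The 4 Wrn mutant animals, whose allele is not named in the sources used here, had drunk 0.4% vitamin C in water from weaning, and the 4 wild-type animals were untreated. Wrn encodes a RecQ helicase, and mice, unlike humans, make vitamin C themselves. The labels describe 4 biological replicates: on every array a mutant labelled with Cy5 met a wild type labelled with Cy3, so genotype, vitamin C and dye cannot be told apart in any ratio, and no array had the dyes swapped. Each value after ± is the SD of the log2 ratio, mutant over wild type, across arrays, and a gene is called when its limma p, adjusted over all 26114 genes tested, is under 0.05.

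Glucuronosyltransferases attach a sugar acid from UDP-glucuronic acid, and sulfotransferases a sulfate from the donor PAPS, to bilirubin, steroids, bile acids and drugs, which makes them soluble and ready for export. Carboxylesterases cleave esters and amides of drugs and of stored lipids, and flavin-containing monooxygenases oxidise nitrogen and sulfur atoms with NADPH. Hepatocytes carry many of these enzymes, in the endoplasmic reticulum or, for the sulfotransferases, in the cytosol.

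Several genes of these families lie in tandem clusters of near copies, so the place where a probe binds matters for their values. Of the 60-base probes, the first 30 bases are shown for those on which the calls of Ces1c and Ugt1a6b turned, except that the Ces1b probe is shown from base 6. The probe that stands for Ces1c is annotated to both Ces1b and Ces1c transcripts, whereas the other Ces1c probe and the Ces1b probe are each annotated to their own gene. Capitals mark the bases that differ between this last pair.
Ces1c, brighter probe: atggagctattccacaaaggatgactattc
Ces1c, dimmer probe: cgatgaaatcttctTtgtattCgggGCtcc
Ces1b probe: cgatgaaatcttctCtgtattTgggATtcc
The dimmer Ces1c probe and the Ces1b probe matched at 49 of 55 overlapping bases, with 4 differences in the 30 shown. The Ugt1a genes share their downstream exons and differ in the first. The brighter probe deposited under Ugt1a6b is annotated to Ugt1a6a, Ugt1a6b, Ugt1a7c and Ugt1a10, and the dimmer probe to Ugt1a6b alone.
Ugt1a6b, brighter probe: ttgtgccggaatttgatgaaaaccaaagta
Ugt1a6b, dimmer probe: tgatgggtcctctaagagagtacaggaaca
Of the other pairs of probes for different genes, those of Ces1d and Ces1h matched at 44 of 54 bases, and no further pair reached 40 identical bases or a shared run of 20. Probes annotated to several genes also stood for Ces2c (with the pseudogene Ces2d-ps), Ces3b, Ugt2a1, Ugt2b36, Ugt2b38, Sult2a4 and Sult2a6, and their values may mix those transcripts.

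In the treated mutants 5 of the 51 genes were higher and 2 lower, and 44 did not pass. The higher genes were Ces1c, Ces1h, Sult1c1, Sult1c2 and Ugt1a6b, and the lower ones Ugt2b34 and Ces4a. Over all genes tested 12.2% were called, 6.64% higher and 5.57% lower, so 7 of 51 is close to the background. Ces1c was the 1 gene called at 1.5-fold or more, which 0.739% of all genes were. The median log2 ratio was 0.04, beside 0.01 over all genes, with single genes between -0.43 and 0.70. When arrays were centred on the median and not by loess, the median was 0.19, beside 0.03 over all genes, with 36 in place of 29 of the 51 genes above 0. In 21 of 51 genes the ratio had 1 sign on all 4 arrays, which held for 40.2% of all genes. The 4 mutant and 4 wild-type channels did not overlap for Ces1c, Ces4a, Sult1b1 and Sult2b1, 4 of 51 against 7.46% of all genes.

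**Figure D1:**
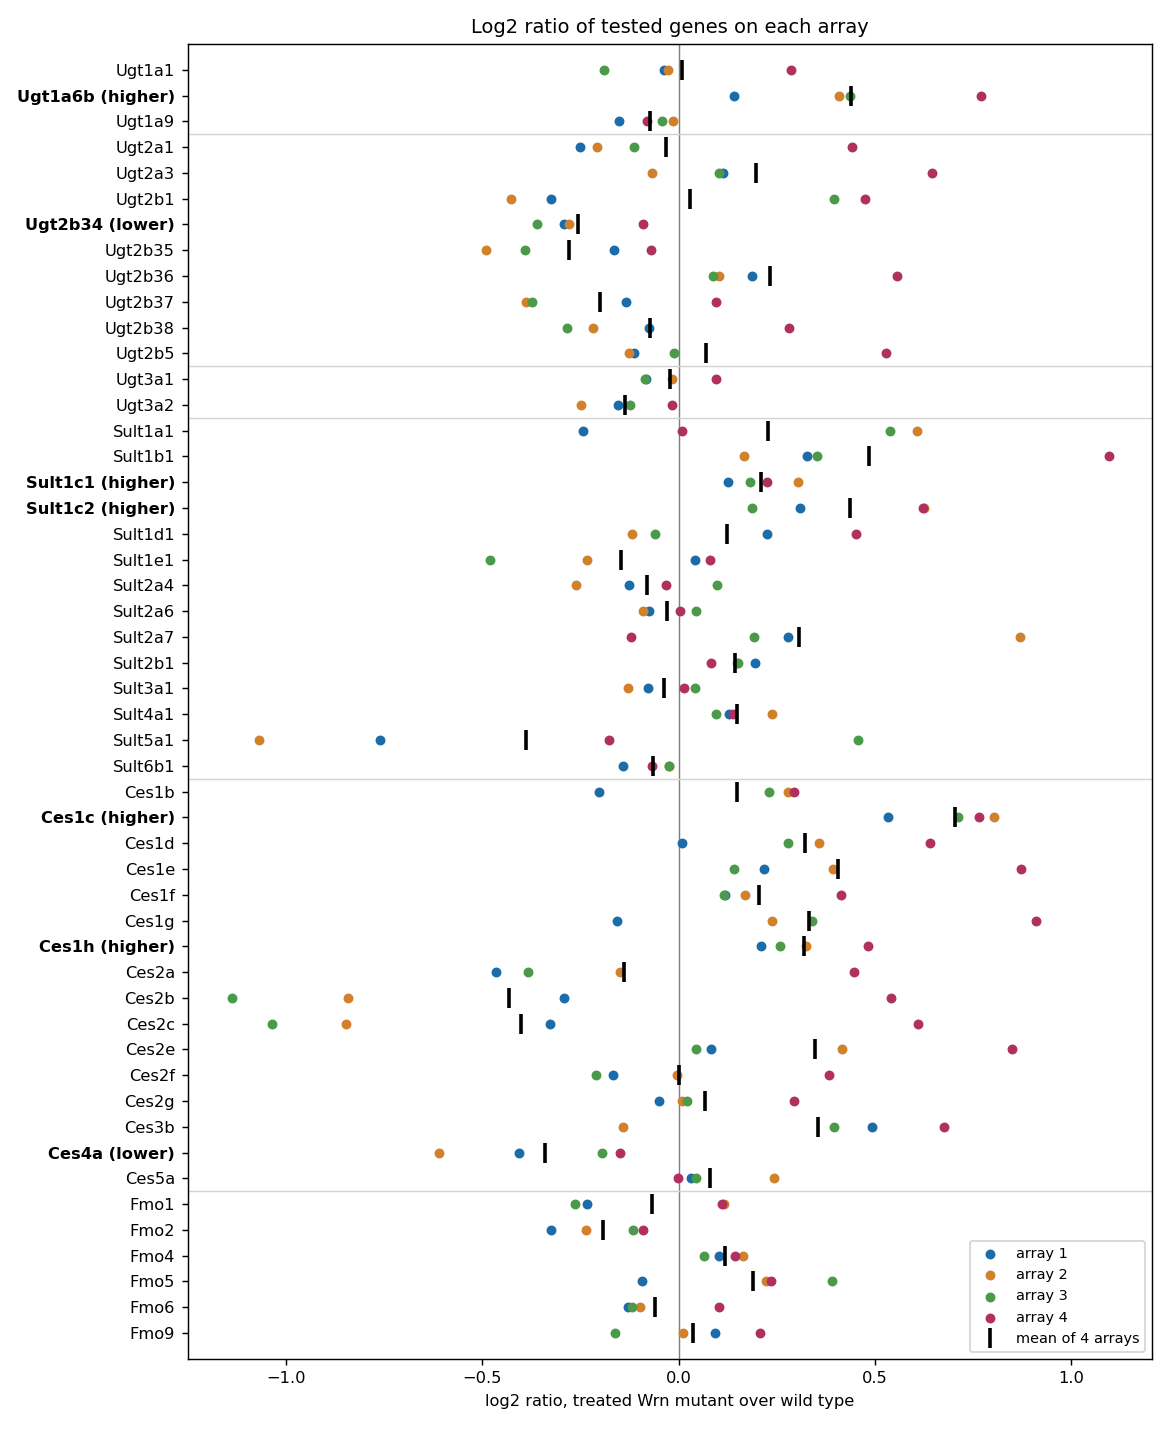
Log2 ratio of treated Wrn mutant over wild type for the tested genes, with 1 point per array and the mean marked. Ces1c lies at 0.53 or above on every array, whereas Ces2b runs from -1.14 on array 3 to 0.54 on array 4.

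Ces1 carboxylesterases had a mean ratio above 0 in 7 of 7 genes, under every alternative setting tried and without any 1 array. Of the 7 genes 2 were called higher, where 6.64% of all genes were. Ces1c, the carboxylesterase that mouse liver secretes into plasma, had log2 ratios of 0.53, 0.80, 0.71 and 0.77 on arrays 1 to 4, a mean of 0.70 ± 0.12 (SD, n = 4; limma adjusted p = 0.00577). Its normalised log2 intensity was 17.88, 17.78, 17.80 and 17.82 in the mutants and 17.34, 16.98, 17.08 and 17.06 in the wild types. All mutants lay above all wild types. The dimmer probe gave -0.25, 0.28, 0.25 and 0.38, a mean of 0.17 ± 0.28 (limma adjusted p = 0.298 over all probes), beside the Ces1b probe with -0.20, 0.28, 0.23 and 0.29. The call of Ces1c thus rested on the probe annotated to both genes, and with the mean of its probes Ces1c was at 0.43 (limma adjusted p = 0.0274).

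Ces1h was called as well, at 0.21, 0.32, 0.26 and 0.48, a mean of 0.32 ± 0.12 (limma adjusted p = 0.0231). It was higher on every array, although its mutant and wild-type channels overlapped. Ces1h levels were low, from 8.07 to 8.61 in the mutants and from 7.66 to 8.40 in the wild types. Ces1d had means of 16.73 in the mutants and 16.41 in the wild types. The probes of Ces1h and Ces1d matched at 44 of 54 bases, and whether Ces1d RNA adds to the Ces1h signal was not tested. Ces1d, a triacylglycerol hydrolase of the endoplasmic reticulum, had 0.01, 0.36, 0.28 and 0.64 (limma adjusted p = 0.0712). Ces1e, the egasyn that holds beta-glucuronidase in the endoplasmic reticulum, had 0.22, 0.39, 0.14 and 0.87 (limma adjusted p = 0.0656). For Ces1d, Ces1e, Ces1f (0.20 ± 0.14) and Ces1g (0.33 ± 0.44) the highest ratio was that of array 4. The median of the Ces1 genes was 0.32, with 0.21 without array 4 and 0.65 with median centring.

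Ces2 carboxylesterases, which favour esters with large alcohol groups, differed in direction between arrays, and 0 of 6 passed in limma, with Ces2e alone at an unadjusted p under 0.05. Ces2b had log2 ratios of -0.29, -0.84, -1.14 and 0.54, and Ces2c had -0.33, -0.85, -1.04 and 0.61. Both were below 0 on 3 arrays and above 0 on array 4 (limma adjusted p = 0.278 and 0.311). The dimmer probes showed the same turn, with -0.18, -0.64, -1.03 and 0.45 for Ces2b and -0.23, -0.18, -0.47 and 0.58 for Ces2c. The wild types differed more among themselves than the mutants. Ces2b was at 13.96, 14.16, 14.92 and 13.03 in the wild types, an SD of 0.78, against 13.67, 13.32, 13.78 and 13.57 in the mutants, an SD of 0.20. For Ces2c the wild types were at 12.76, 13.73, 14.38 and 12.49, and the mutants at 12.43, 12.88, 13.35 and 13.10. In both genes wild-type animal 3 had the highest level and wild-type animal 4 the lowest. Ces2e, with 0.08, 0.42, 0.04 and 0.85, was above 0 on all arrays (limma adjusted p = 0.123), and Ces2a had -0.47, -0.15, -0.38 and 0.45. Ces2f was at 0.00 ± 0.27 and Ces2g at 0.07 ± 0.15, again with the highest ratio on array 4.

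Promoters of the Ces2 genes shared letters that the choice of genes did not use. RefSeq promoters of assembly GRCm38.p6 matched 44 of the 53 genes with 48 start sites. The 250 bases before each start were searched on both strands for 4 motifs: the TATA box TATAAA, letters from the motif of the factor HNF1, GTTAAT, letters from that of HNF4, CAAAGT, and the CCAAT box. Matches of different motifs may overlap. CAAAGT was in 4 of 5 Ces2 promoters and in 6 of 48 over the group, against 12.6% of all promoters. The 150 bases before the start are shown 5′ to 3′ for those 4 genes, all on the plus strand of chromosome 8, with the match, here as its reverse complement, in capitals.
Ces2a, chr8:104733853-104734002: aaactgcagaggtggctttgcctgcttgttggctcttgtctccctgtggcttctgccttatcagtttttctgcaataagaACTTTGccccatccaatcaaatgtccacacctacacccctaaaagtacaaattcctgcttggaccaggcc
Ces2e, chr8:104926110-104926259: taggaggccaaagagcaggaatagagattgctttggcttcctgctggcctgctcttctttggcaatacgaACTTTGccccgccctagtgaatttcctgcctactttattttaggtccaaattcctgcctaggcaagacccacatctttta
Ces2f, chr8:104947206-104947355: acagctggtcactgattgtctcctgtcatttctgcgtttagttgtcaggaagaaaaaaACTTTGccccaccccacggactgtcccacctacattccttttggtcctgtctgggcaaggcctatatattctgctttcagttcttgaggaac
Ces2g, chr8:104961568-104961717: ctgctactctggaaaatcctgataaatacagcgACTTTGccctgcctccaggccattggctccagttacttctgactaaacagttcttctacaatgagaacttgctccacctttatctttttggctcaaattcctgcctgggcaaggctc
The match starts 70, 80, 92 and 117 bases before the start of Ces2a, Ces2e, Ces2f and Ces2g, and the window of Ces2c held none. GTTAAT was in 13 of 48 promoters of the group against 6.43% of all promoters, among them 4 of 4 Sult2a and 2 of 2 Ugt1a promoters, and in 0 of the 6 promoters of called genes. TATAAA was in 20.8% against 12.4%, and CCAAT in 33.3% against 33.8%. Genes of a cluster are related copies, so their promoters are not independent of each other, and a match is not a binding site.

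The other carboxylesterases differed among themselves. Ces4a was lower on every array, with -0.41, -0.61, -0.20 and -0.15, a mean of -0.34 ± 0.21 (limma adjusted p = 0.0430). Its mutant channels, at 10.81, 10.37, 10.71 and 10.74, lay below the lowest wild type, at 10.89. Ces3b had 0.49, -0.14, 0.40 and 0.68 (limma adjusted p = 0.104). Ces5a, known from epididymis and kidney, was at 0.08 ± 0.11.

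Sulfotransferases of family 1 included 2 higher genes and no lower one among 6, where 6.64% of all genes were higher and 5.57% lower. Sult1c2 had log2 ratios of 0.31, 0.63, 0.19 and 0.62, a mean of 0.44 ± 0.22 (limma adjusted p = 0.0282). Sult1c1, on chromosome 17 as well, had 0.13, 0.30, 0.18 and 0.23, a mean of 0.21 ± 0.07 (limma adjusted p = 0.0373). In both, every array was above 0, while the channel levels of mutants and wild types overlapped. Sult1b1, which sulfates thyroid hormones, had 0.33, 0.17, 0.35 and 1.10 and did not pass on its brighter probe (limma adjusted p = 0.0713). Its dimmer probe, at 0.47 ± 0.34, did (limma adjusted p = 0.0453 over all probes). All 4 mutant levels of Sult1b1, from 13.00 to 13.31, were above the highest wild type at 12.99, and wild-type animal 4 was lowest at 11.95. Sult1a1, a phenol sulfotransferase, was at 0.23 ± 0.41, with -0.24 on array 1 and 0.61 on array 2. The estrogen sulfotransferase Sult1e1 was at -0.15 ± 0.26 and Sult1d1 at 0.12 ± 0.27.

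None of the other 8 sulfotransferases tested was called by limma, and Sult2b1 and Sult4a1 had an unadjusted p under 0.05. Sult2b1, which sulfates cholesterol, had 0.20, 0.15, 0.15 and 0.08 (limma adjusted p = 0.0698), and its channels did not overlap. Sult4a1, known from brain, was at 0.15 ± 0.06 (limma adjusted p = 0.0714), and its dimmer probe at -0.01 ± 0.10. Of the hydroxysteroid sulfotransferases, Sult2a7 ran from -0.12 on array 4 to 0.87 on array 2, Sult2a4 was at -0.08 ± 0.15 and Sult2a6 at -0.03 ± 0.06. Sult5a1 had the widest range of the sulfotransferases, with -0.76, -1.07, 0.46 and -0.18 (limma adjusted p = 0.288). Sult3a1 and Sult6b1 were at -0.04 ± 0.08 and -0.06 ± 0.06.

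Glucuronosyltransferases of family 1 gave 1 call, on 1 of 2 probes of the gene. The brighter probe under Ugt1a6b, a phenol-conjugating form, had 0.14, 0.41, 0.44 and 0.77, a mean of 0.44 ± 0.26 (limma adjusted p = 0.0346). The dimmer probe had 0.07, -0.02, -0.12 and -0.13, a mean of -0.05 ± 0.09 (limma adjusted p = 0.545 over all probes). The higher value belongs to the probe annotated to 4 Ugt1a genes. Their downstream exons are shared, and the annotation may leave out other Ugt1a forms, so which form changed cannot be read from this probe. Mutant levels on that probe were 16.31, 17.02, 16.85 and 16.93 and wild-type levels 16.17, 16.61, 16.41 and 16.16, and mutant animal 1 lay within the wild-type range. With the mean of both probes the ratio was 0.20, which passed narrowly (limma adjusted p = 0.0496). Ugt1a1, the bilirubin-conjugating form, was at 0.01 ± 0.20 and Ugt1a9 at -0.07 ± 0.06.

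Family 2 glucuronosyltransferases, which conjugate steroids and bile acids, included 1 lower gene of 9, where 5.57% of all genes were lower. Their median was -0.03, and 0.35 with median centring. Ugt2b34 had -0.29, -0.28, -0.36 and -0.09, a mean of -0.26 ± 0.12 (limma adjusted p = 0.0348), and its channels overlapped. Ugt2b35 had -0.17, -0.49, -0.39 and -0.07 and lay just outside the threshold (limma adjusted p = 0.0579). Ugt2b37 was at -0.20 ± 0.23, Ugt2b36 at 0.23 ± 0.22 and Ugt2a3 at 0.20 ± 0.31, and none of these passed. Ugt2b1 had -0.32 and -0.43 on arrays 1 and 2 but 0.40 and 0.48 on arrays 3 and 4. Ugt2b5, Ugt2b38 and Ugt2a1 had means between -0.07 and 0.07, and the dimmer probes of Ugt2a1 were at 0.01 and 0.08. In family 3, whose enzymes use other UDP-sugars, Ugt3a2 was at -0.14 ± 0.09 (limma adjusted p = 0.121) and Ugt3a1 at -0.02 ± 0.09. The ratio of Ugt3a2 turned to 0.28 with median centring in place of loess.

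Of 7 monooxygenases none was called by limma on its brightest probe, and Fmo2, Fmo4 and Fmo5 had an unadjusted p under 0.05. Fmo2, best known from lung, had -0.32, -0.24, -0.12 and -0.09 (limma adjusted p = 0.0621), while its other probes were both at -0.02. Fmo4 was at 0.12 ± 0.04 (limma adjusted p = 0.109). The 3 probes of Fmo5, an abundant liver form, differed. The brightest had -0.09, 0.22, 0.39 and 0.24 (limma adjusted p = 0.151), the next a mean of 0.11 ± 0.25, and the dimmest 0.32, 0.63, 0.50 and 0.56, a mean of 0.50 ± 0.13 (limma adjusted p = 0.0111 over all probes). The dimmest is deposited under another transcript of the gene than the others, but all 3 probes are annotated to the same RefSeq transcripts. The mean of the 3 probes was 0.27 (limma adjusted p = 0.0465). Fmo1 was at -0.07 ± 0.21 on its brighter and 0.11 ± 0.24 on its dimmer probe. Fmo6 and Fmo9 were at -0.06 ± 0.11 and 0.04 ± 0.16.

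**Figure D2:**
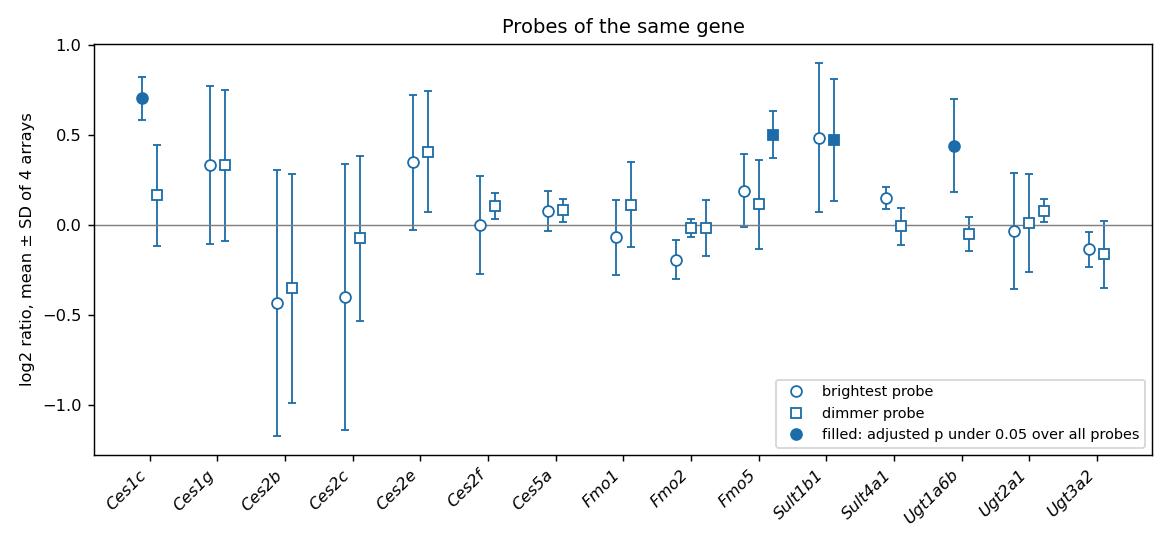
Mean ± SD over 4 arrays of the log2 ratio (mutant over wild type) for each probe of the genes with more than 1 kept probe. Both probes of Ces1g lie at 0.33, whereas those of Ces1c lie at 0.70 and 0.17 and those of Ugt1a6b at 0.44 and -0.05.

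Array 4 stood apart from the others in these genes. Its ratio was the highest of the 4 in 33 of 51 genes, against 20.8% of all genes tested. This held for 14 of 16 carboxylesterases and 13 of 14 glucuronosyltransferases, and for 3 of 14 sulfotransferases and 3 of 7 monooxygenases. The median ratio of the Ces2 genes was -0.23, -0.08, -0.30 and 0.49 on arrays 1 to 4, and that of the Ugt2 genes -0.13, -0.22, -0.11 and 0.44. Both medians were above 0 on array 4 and below 0 on the other 3 arrays, while the median over all genes stayed between 0.00 and 0.03.

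**Figure D3:**
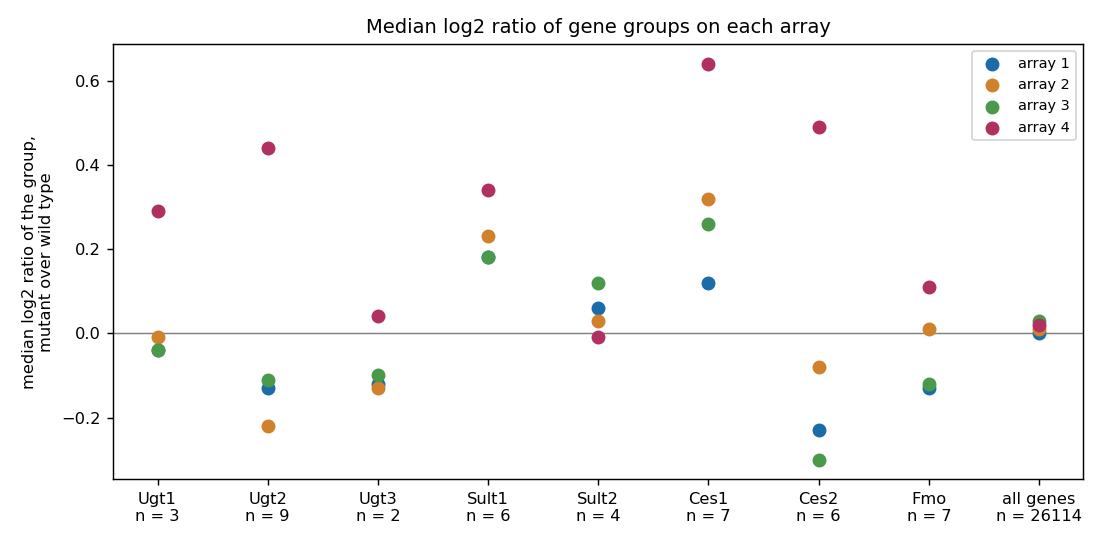
Median log2 ratio of mutant over wild type in each gene group on each of the 4 arrays. Array 4 lies above the other arrays for Ces1, Ces2 and Ugt2, at 0.64, 0.49 and 0.44, and not for Sult2, at -0.01.

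The wild-type animal of array 4 had the lowest level of the 4 wild types in 32 of 51 genes, against 24.5% of all genes. These included 6 of 6 Ces2 genes, 6 of 7 Ces1 genes and 7 of 9 Ugt2 genes. The mutant of array 4 was the highest of the mutants in 6 of 51, against 17.2% of all genes. In 38 of 51 genes the SD was larger among the wild types than among the mutants, against 49.0% of all genes. Ces1g, for example, was at 14.77, 14.49, 14.27 and 13.62 in the wild types and between 14.53 and 14.73 in the mutants.

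The same wild-type animal had the highest acute phase levels. The mean log2 intensity of 14 acute phase genes was 14.87, 15.21, 15.15 and 17.24 in the wild types and 14.59, 14.41, 14.79 and 15.16 in the mutants. Of the 14, the serum amyloids Saa1, Saa2 and Saa3 were called lower. All 3 lost the call without array 2 and with trend and robust moderation, and Saa1 and Saa2 also without array 3, with mean ratios between -2.69 and -2.36 in each of these settings. Without the pairing of channels within an array, all 3 serum amyloids lost the call too. Lcn2, encoding a lipocalin of inflamed liver, was at 8.79, 9.27, 8.96 and 15.54 in the wild types. In the mutants it was at 8.44, 8.45, 8.84 and 12.34, so both channels of array 4 were the highest of their group. The mean level of the 5 measured neutrophil markers was 8.37, 8.39, 8.34 and 8.81 in the wild types, and that of the 8 Kupffer cell markers 12.10, 12.27, 12.27 and 12.70, again highest in animal 4. Among the neutrophil markers S100a8 and S100a9 stood out there, at 8.24 and 11.16. Mpo and Cxcr2 were highest in wild-type animal 1, and Retnlg was at 7.73 in animal 4 against 7.66 in animal 3. The part of the acute phase genes and these markers in the low carboxylesterase and glucuronosyltransferase levels of wild-type animal 4 was not tested. Ces2b was highest in wild-type animal 3, whose mean acute phase level of 15.15 lay between 14.87 in animal 1 and 15.21 in animal 2. Single acute phase genes differed in that animal. Saa1, at 15.42, 16.39, 17.48 and 19.76 in the wild types, was second highest there, and Orm1, at 14.68, 15.02, 14.50 and 16.76, was lowest. Whether Ces2b levels go with acute phase levels was not tested. Without array 4 the median ratio of the 51 genes was -0.04 in place of 0.04, with 23 in place of 29 above 0, and the Ces2 median was -0.23 in place of -0.07.

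**Figure D4:**
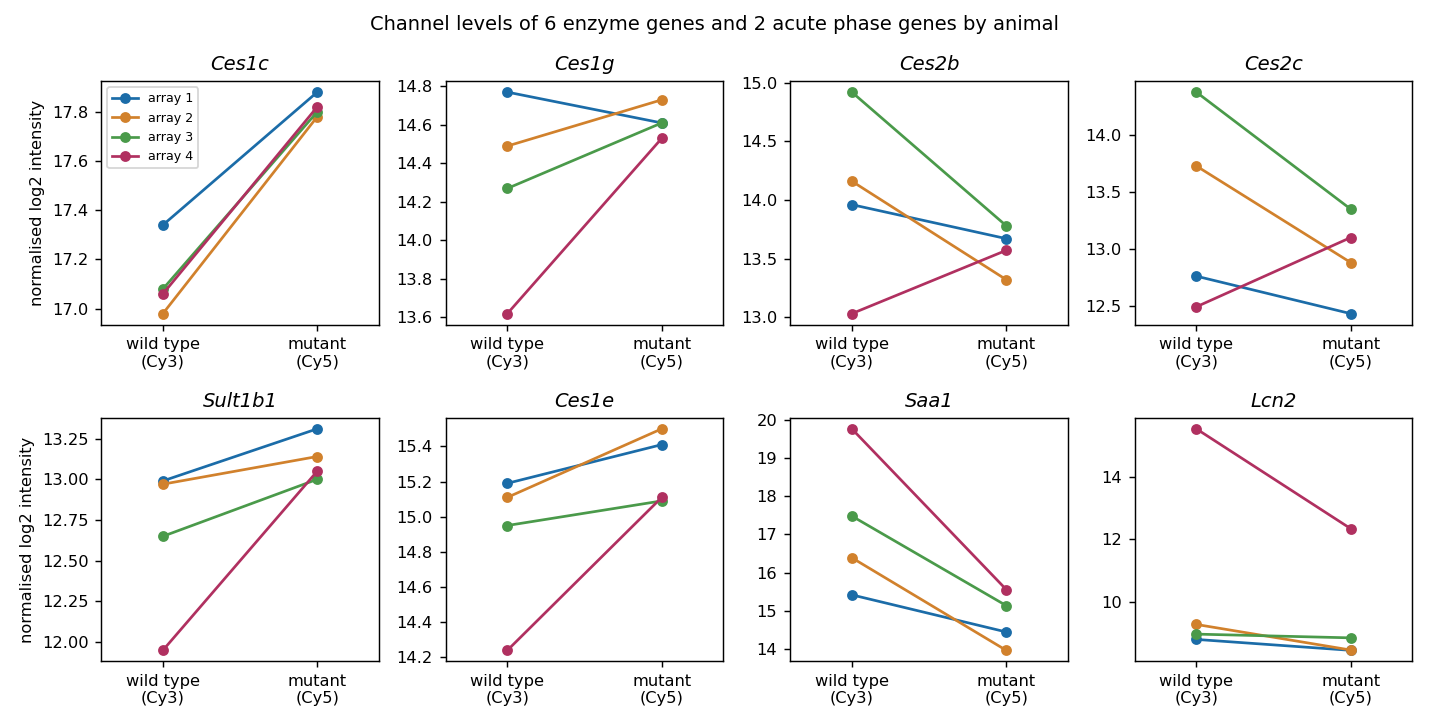
Normalised log2 intensity of 6 enzyme genes and 2 acute phase genes in each animal, with the wild type (Cy3) and mutant (Cy5) of each array and a separate axis for each gene. Among the wild types animal 4 is lowest for Ces1g, Ces2b, Ces2c, Sult1b1 and Ces1e and highest for Saa1 and Lcn2, while Ces1c separates all mutants from all wild types.

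With 3 arrays in place of 4, fewer genes passed. Ces1c kept its call without any 1 array (limma adjusted p from 0.0182 to 0.0494). Ces1h and Sult1c2 kept theirs without array 3 and lost them without array 1, 2 or 4. The other 4 lost theirs whichever array was left out, with mean ratios of 0.18 to 0.24 for Sult1c1, 0.33 to 0.54 for Ugt1a6b, -0.31 to -0.22 for Ugt2b34 and -0.40 to -0.25 for Ces4a. With median centring 17 genes were higher and 3 lower, in place of 5 and 2, and Ugt2b34 and Ces4a were not among them.

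Genes that feed, regulate or complement these enzymes came from lists drawn up with earlier results of these data known. Of 9 genes that make or move UDP-glucuronic acid and PAPS none was called by limma, and 3 had an unadjusted p under 0.05. Papss2, which makes PAPS, was at -0.29 ± 0.19 (limma adjusted p = 0.0530) and Papss1 at -0.18 ± 0.17 (limma adjusted p = 0.126). Ugp2 went the other way at 0.33 ± 0.37 (limma adjusted p = 0.130). Of 7 genes that remove glucuronides and sulfates none was called by limma, and 2 had an unadjusted p under 0.05, Gusb at -0.16 ± 0.09 and Sts at -0.27 ± 0.25. Among 11 export pumps Abcc2, which moves conjugates into bile, was lower at -0.35 ± 0.10 (limma adjusted p = 0.0169). It was at -0.10 with median centring and -0.27 with Agilent's processed ratios, and not called in either. Abcc5 was higher at 0.20 ± 0.06 on its brightest probe, and not called at 0.10 with the mean of its probes.

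Among 16 enzymes of methyl, acetyl and amino acid conjugation Nat8 was higher at 0.59 ± 0.29, and Acsm5 at -0.36 ± 0.15 and Glyat at -0.24 ± 0.08 were lower. With median centring Acsm5 was at -0.16 and Glyat at -0.02, and neither was called. Of 16 other hydrolases 4 were higher and 3 lower, where 6.64% of all genes were higher and 5.57% lower. The paraoxonase Pon1 was higher at 0.57 ± 0.28, the epoxide hydrolase Ephx2 at 0.51 ± 0.36 and the esterase Esd at 0.29 ± 0.10. Nceh1 was lower at -0.59 ± 0.35, the triglyceride lipase Pnpla2 at -0.34 ± 0.03 and the acetylcholinesterase Ache at -0.25 ± 0.08. When all probes of a gene were averaged, Pon1 was at 0.16, Esd at 0.09 and Glyat at -0.17, and none of these was called. Ephx2, with 1 probe, stayed at 0.51 there and just missed the threshold (limma adjusted p = 0.0533), and was at 1.10 with median centring and 0.26 with Agilent's ratios. Pnpla2 was at -0.17 with median centring and not called.

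Of 21 receptors and transcription factors that regulate drug metabolism 5 were lower and 0 higher, where 5.57% of all genes were lower. Their median was -0.15 beside 0.01 over all genes. Cebpa was at -0.41 ± 0.13, Foxa1 at -0.28 ± 0.12 and Hnf4a at -0.25 ± 0.10. Rxrb and Ppara were also called, Ppara turning to 0.17 with median centring. When all probes of a gene were averaged, Cebpa was at -0.13, Hnf4a at -0.14 and Rxrb at -0.12, and none of these was called. Median centring left Foxa1 alone of the 5 called, with Cebpa at -0.20, Hnf4a at -0.12 and Rxrb at -0.15, and Agilent's ratios left 0 of 5. The receptors CAR (Nr1i3, -0.24 ± 0.20) and PXR (Nr1i2, -0.19 ± 0.15) did not pass.

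Readouts of CAR, PXR and AhR were 14 tested genes, P450 genes together with Por and Tiparp. Among them Cyp2b9 was higher at 1.47 ± 0.63 and Cyp1a2 lower at -0.42 ± 0.22. Cyp1a2 was not called with median centring (-0.14), Agilent's ratios (-0.37) or the mean of its probes (-0.31). Cyp2b9 was at 0.78 with the mean of its probes, still called, and missed the threshold with trend and robust moderation (limma adjusted p = 0.0590). Cyp3a25 was lower at -0.46 ± 0.28 and turned to 0.01 with median centring. Cyp2b10, the usual CAR readout, was at -0.01 ± 0.07. Cyp3a11, a usual PXR readout, had -0.30, -0.26, -0.27 and 1.13, so that its ratio too was highest on array 4. Cyp2b9 was also the 1 higher gene of 11 female-predominant genes tested, and Cyp7b1, C6 and C8b of 11 male-predominant genes were lower, at -0.98 ± 0.62, -0.92 ± 0.39 and -0.52 ± 0.34. With median centring they were at -0.50, -0.61 and -0.22, and C6 alone was called. The female-predominant and male-predominant lists had medians of 0.10 and 0.02, and 5.57% of all genes were lower. Elovl3, also male-predominant, went the other way at 0.55 ± 0.41, just outside the threshold (limma adjusted p = 0.0528). Of the 23 genes called in these lists, 4, 1, 11 and 6 kept the call without array 1, 2, 3 and 4, 11 with median centring and 5 with Agilent's ratios. Averaging the probes of a gene kept 13 of the 23, and dropping the pairing of channels within an array kept 0.

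Between 82.5% and 96.1% of probes were well above background per channel, with the lowest shares in both channels of array 1. The Wrn probe gave -0.02, 0.03, 0.00 and -0.01 on arrays 1 to 4, and no source used here says where it lies relative to the mutation, so it checks no label. Of 9 hepatocyte markers tested Alb, Ttr and Tat were higher, where 6.64% of all genes were higher and 5.57% lower. The other hepatocyte markers were not called and differed in sign, and the list median was 0.10. Ass1 was at 0.31 and Cps1 at 0.10, but Cyp2e1 at -0.27, Glul at -0.23, Apoa1 at -0.11 and Apob at -0.03. Cyp2e1 and Glul had an unadjusted limma p under 0.05. Among 8 markers each, Sox9 and Spp1 of cholangiocytes, Clec4g and Kdr of sinusoidal endothelium and Col1a1 and Col1a2 of stellate cells were lower, and Ighm of T and B cells was higher. No Kupffer cell, neutrophil, red blood cell or extrahepatic epithelial marker was called by limma, and S100a9, Fabp2 and Sftpb among them had an unadjusted p under 0.05. Of the 13 marker and acute phase genes called, 5, 1, 5 and 8 kept the call without array 1, 2, 3 and 4. Of the same 13, 10 kept it with median centring, 6 with Agilent's ratios, and Alb alone without the pairing of channels within an array. The part of these markers in the enzyme ratios was not tested, and in whole liver fewer cells of a type and less RNA per cell cannot be told apart.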

How the data were processed

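Liver RNA of 4 pairs of mice was hybridised to 2-colour Agilent arrays whose annotation is mm9. Per the file headers, Agilent Feature Extraction 10.5.1.1 gave the median spot and background intensity of each channel, a processed intensity and a log10 ratio. A deposited table of the authors' own adds a log2 ratio per array, a p-value, and scores (signed fold change, log odds and a moderated statistic). The submitters' processing notes name limma. That table chose the members, and 0 of its columns were left aside.

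Median intensities were corrected with normexp (offset 50) and loess, control and outlier spots were dropped, spots averaged per probe, and probes kept when well above background in 1 channel on at least 3 arrays (R 4.3.3, limma 3.58.1). Genes were named through RefSeq where possible, and the brightest probe stood for a gene. The mean ratio was set against 0 by lmFit and eBayes in limma. Its p was adjusted by Benjamini and Hochberg's method over 26114 genes or, for single probes, 39080 probes. The fit was tested on simulated data. Levels per channel followed Aquantile normalization, and dye bias may enter them.

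Members and lists were chosen with earlier results of these data known. The naming rule took all called members, in families without a call the 2 of smallest p, 2 on each side of the threshold, genes whose probes disagreed, untested members, and per pathway list up to 3 called genes each way or 2 of smallest p. Other members, acute phase and marker genes, Rxrb, Ppara, Cyp2b10, Cyp3a11, Nr1i2 and Nr1i3 were chosen with their values known. The values of 1 member are not reported here or plotted by gene. Other settings tried were those of pairing, array weights, moderation, fold threshold, probe rule, naming, filter, normalization and background, the authors' ratios, and each array left out.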

Additional observations from a re-analysis of the deposited data

Results flagged for a closer look

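Over the 51 tested genes 2 had an array far from the other 3, and chance gives about 1 such gene in 20. The log2 ratio of Ces1b was -0.20 on array 1, against 0.23 to 0.29 on the other arrays. That of Fmo6 was 0.10 on array 4, against -0.13 to -0.10 on the others, on a probe that was well above background on 3 of 4 arrays.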

How the results depend on the processing

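The 7 changed genes of the group, and 3189 over all genes, became 20 and 4923 with median centring (17 higher and 3 lower, and 3416 and 1507), 2 and 781 with Agilent's processed log ratios, and 1 and 193 at 1.5-fold or more. Leaving out 1 array gave 1 to 3 genes of the group and 49 to 1340 over all. Without the pairing of channels within an array (no replicate block), 1 gene of the group, Ces1c, and 24 over all passed. Moderation with a trend and robust fit gave 7 genes, all higher, of which 5 were shared with the 7 above (2652 higher and 983 lower over all). The other settings of background, filter, probe rule, naming, weights and the authors' ratios gave 7 or 8 genes, with all 7 among them. The authors' ratios were fitted again here. The adjusted p that the authors deposited (limma) was 0.0559 for Ces4a, 0.0519 for Sult1c1 and 0.0501 for Ugt2b34. It was under 0.05 for the probes that stand for Ces1c, Ces1h, Sult1c2 and Ugt1a6b. Ugt3a2 turned to 0.28 with median centring. Where a count fell without an array, fewer samples entered, and otherwise the cause was not tested. With 4 arrays, precision is limited throughout.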
